A study of Homo sapiens with 6 samples.

Results

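ATP-binding cassette (ABC) proteins outside the sterol exporters are described by 40 genes of the 23368 in the table. Their symbols are ABC, a subfamily letter from A to G and a number, without ABCA1, ABCG1, ABCG5 and ABCG8. They were compared between 2 groups of HepG2 cells, an established human liver cancer line. In the shCHROME group (3 libraries with the letters a to c) the cells stably carried 1 hairpin, labelled SH3, against CHROME, a long noncoding RNA. In the EV group (3 libraries, lettered alike) they carried a non-targeting hairpin. Both hairpins were in the pLKO vector and came as lentivirus packaged in HEK293T, an embryonic kidney line. No label gives the time after transduction or ties a library to a culture of its own. The p-values therefore rest on the spread between libraries, which may be technical. The libraries held 29188213 to 35429420 reads on genes. Values are normalized counts, which are reads over the authors' size factor for the library. CHROME itself is not analysed here.

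ABC proteins bind and split ATP in paired cassettes, and most use that energy to move a substrate through a membrane. In hepatocytes, members on the canalicular side send drugs, conjugates and phospholipid into bile, and members on the blood side return conjugates to plasma. Others work inside the cell, in peroxisomes, mitochondria and lysosomes. Subfamilies E and F have no membrane part and act in translation and ribosome recycling.

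Of the 40 members, 31 had enough reads to be tested and 9 did not. With limma over all genes tested, 3 of the 31 fell in shCHROME, 1 each of subfamilies B, C and G, and none rose. That is 9.68% of the tested members called (past an adjusted p of 0.05), beside 10.5% of all 14598 genes tested (6.87% lower and 3.64% higher), so the members' share was near that of all genes. The 3 were ABCB4, ABCC3 and ABCG2, and their decreases were between 1.22-fold and 1.34-fold. By the signs of their fold changes, 14 tested members were below 0 and 17 above, and their median log2 fold change was 0.03, beside 0.01 over all genes tested. The normalized counts of the groups did not overlap in 11 tested members, 35.5%, of which 7 were lower and 4 higher in shCHROME, beside 28% of all genes. At an unadjusted p under 0.05 limma gave 11 members, 35.5%, of which 7 were lower and 4 higher, beside 24.2% of all genes. edgeR and DESeq2 also called 0 members higher. The direction of calls moved with the scaling. With library totals, 2 members were lower and 2 higher, and over all genes 702 were lower and 936 higher, so that 42.9% of calls were lower in place of 65.3%.

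**Figure D1:**
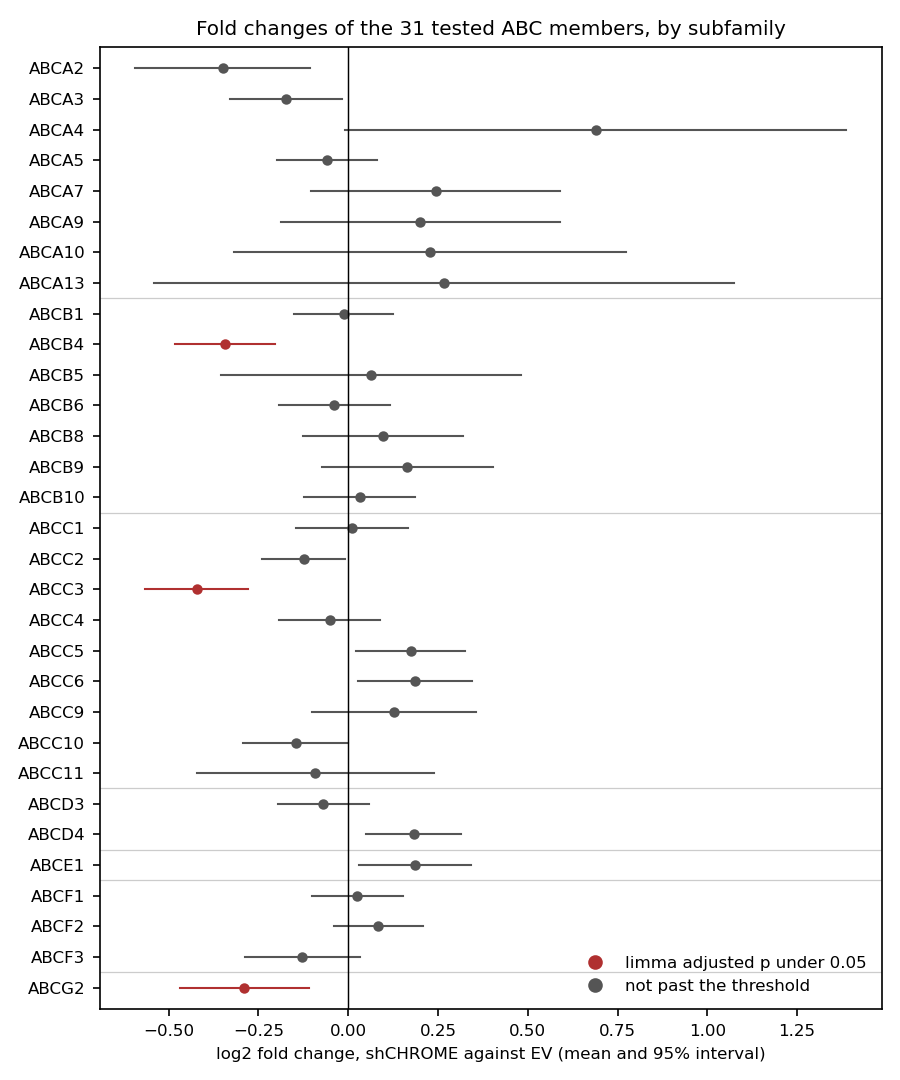
Each point is the log2 fold change of 1 tested member, shCHROME against EV (x axis, log2 scale), with its 95% interval, ordered by subfamily letter. The 3 red points are the members past an adjusted p of 0.05, and all lie below 0, from -0.29 for ABCG2 to -0.42 for ABCC3.

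The 2 promoters shown here belong to the member with the highest level per length, ABCC2, and to ABCG2, the called member that has an entry in the RefSeq promoter table (GRCh38.p14). Each is the 250 bases before the start site on the gene's own strand. For ABCG2 the middle one of 5 listed starts was taken. ABCC2 lies at chr10:99782390-99782639 on the plus strand and ABCG2 at chr4:88158910-88159159 on the minus strand. Capitals mark the TATA box letters TATAAA and the GC box letters GGGCGG on either strand.
ABCC2: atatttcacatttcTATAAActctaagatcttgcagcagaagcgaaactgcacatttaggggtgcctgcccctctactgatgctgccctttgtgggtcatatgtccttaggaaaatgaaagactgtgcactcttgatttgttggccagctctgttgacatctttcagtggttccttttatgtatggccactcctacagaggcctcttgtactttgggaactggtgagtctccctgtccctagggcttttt
ABCG2: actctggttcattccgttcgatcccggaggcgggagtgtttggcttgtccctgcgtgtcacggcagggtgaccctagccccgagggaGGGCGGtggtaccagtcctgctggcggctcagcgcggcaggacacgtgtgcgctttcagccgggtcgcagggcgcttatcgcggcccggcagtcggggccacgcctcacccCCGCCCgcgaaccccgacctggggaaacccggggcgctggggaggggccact

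The ABCC2 stretch held 1 match to the TATA box letters and none to those of the GC box. The ABCG2 stretch held 2 matches to the GC box letters and none to those of the TATA box. The ABCC2 match lies near the end of the stretch farthest from the start site, so the letters alone do not show a working TATA box. Both strands were searched. Promoter stretches of the same length were at hand for 32 of the 40 members (50 starts) and for 35116 starts in all. A GC box was found in 48% of the members' starts and in 42.6% of all starts, and a TATA box in 10% and 10.7%. The antioxidant response element TGACNNNGC, the sequence that NRF2 binds, was in 18% of the members' starts and 10.9% of all. The core GCGTG of the aryl hydrocarbon receptor was in 42% and 32.2%. The E-box CACGTG was in 16% and 6.34%, and the nuclear receptor half-site AGGTCA in 4% and 12.1%. The other strand of that half-site begins with TGAC, as the antioxidant element does, so a stretch can match both. These are matches of letters in a window, and starts of 1 gene can overlap.

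The label of the cells was checked with marker genes. All 10 hepatocyte markers were present, with sums of 1414656 to 1535657 normalized counts in EV and 1133661 to 1329995 in shCHROME, and 6 of the 10 fell, from TF at 1.18-fold to AFP at 1.83-fold. Fewer cells of a kind and less RNA per cell cannot be told apart in such bulk samples. Of 6 embryonic kidney markers NEFM was at 0 in each library and the sums of 351 to 356 in EV and 359 to 417 in shCHROME came almost all from WT1. Of 4 blood markers CD3E was at 0, PTPRC had 3 reads over all libraries, and the sums (5090 to 5142 and 5528 to 7080) came mostly from LYZ, which rose 1.22-fold. The 3 endothelial markers summed to 1054 to 1095 and 925 to 1001, and the 4 stellate and fibroblast markers to 1591 to 1799 and 1453 to 1722, with COL1A1 and LUM at 3 reads or fewer and PDGFRB falling 1.98-fold. The part of these shifts in the members' values was not tested.

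Levels are compared between genes per kilobase of exon. The SDs given are the spread between libraries and leave out any error of the exon lengths. ABCC2, the canalicular pump for bilirubin glucuronide and other conjugates, had the highest level in EV, with 2501 ± 18 normalized counts per kilobase (SD, n = 3), 24.9% of the sum over the 40 members. ABCB1, the multidrug exporter P-glycoprotein, followed with 1383 ± 55. Next came ABCE1 with 717 ± 32.1 and ABCF1 with 667 ± 13.6, which differed by more than their SDs. ABCF2 (587 ± 17.5) and ABCB6 (576 ± 31.1) did not differ beyond their spread. The called members were lower in this order: ABCB4 stood ninth with 280 ± 18.3, ABCC3 eighteenth with 163 ± 1.71 and ABCG2 next with 134 ± 3.48. The sum over the members was 9995 to 10074 normalized counts per kilobase in the EV libraries and 9662 to 9972 in the shCHROME libraries.

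**Figure D2:**
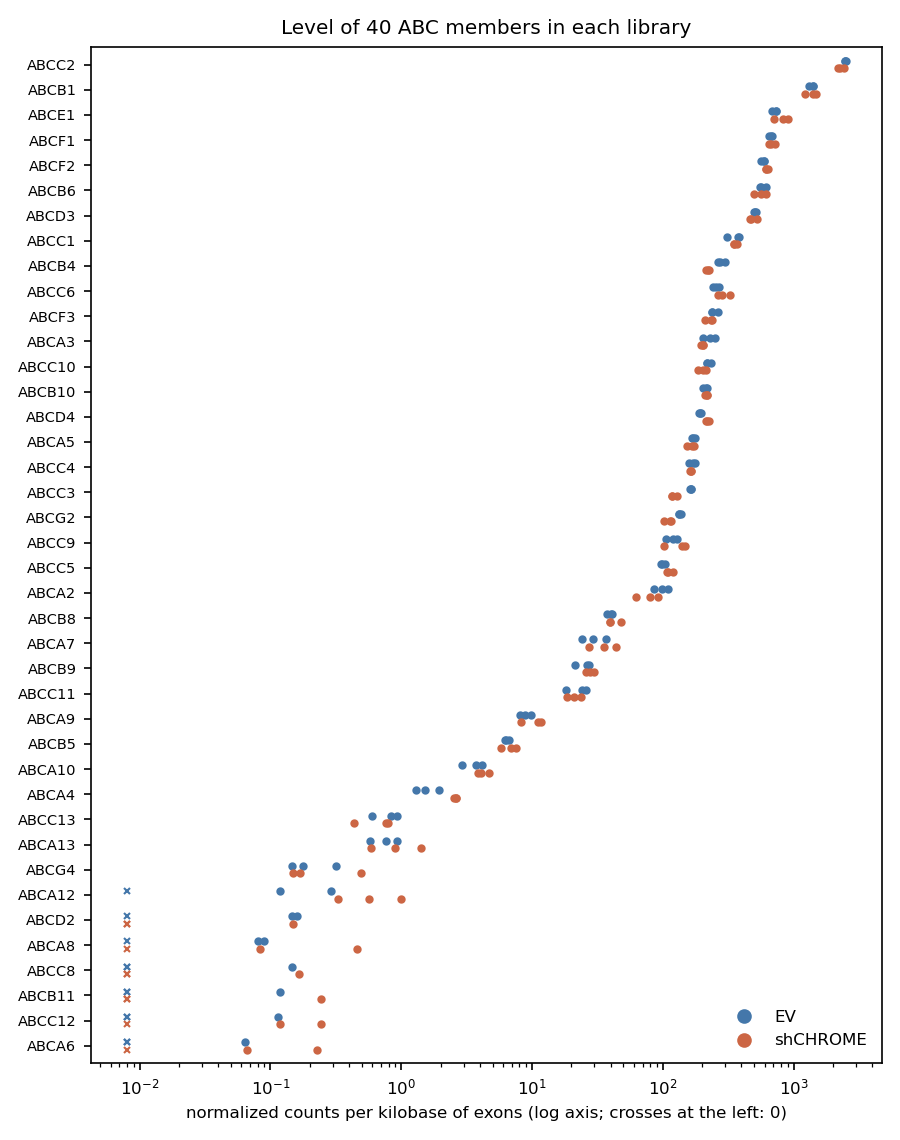
Each point is the level of 1 member in 1 library, in normalized counts per kilobase of merged exons on a log axis, with EV in blue, shCHROME in orange and crosses for a value of 0. Mean levels in EV run from 2501 for ABCC2 to under 1 for the 9 members that were not tested and for ABCA13.

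Of the 5 members known for export across the canalicular membrane, 4 were tested, of which 2 fell and 2 were not called. Over all genes tested 6.87% were called lower and 3.64% higher, and 4 members are too few to set against that share. Grouping members by their place in the cell was not part of the planned split by subfamily letter. ABCB4 flips phosphatidylcholine into bile. It had 2115, 2327 and 2059 normalized counts in EV replicates a, b and c, and 1711, 1669 and 1738 in shCHROME. All shCHROME libraries lay below all EV libraries. The decrease was 1.27-fold, with a log2 fold change of -0.34 (SE 0.07, limma adjusted p = 0.00239). ABCG2, a pump for drugs, urate and porphyrins that works as a dimer, had 669, 698 and 667 in EV and 572, 582 and 512 in shCHROME, again without overlap. It fell 1.22-fold, with a log2 fold change of -0.29 (SE 0.09, limma adjusted p = 0.0367). That call was lost in 6 of the 16 alternatives, among them library totals (adjusted p = 0.079) and leaving out EV a (0.0876), EV b (0.122), EV c (0.0907) or shCHROME c (0.17). Its adjusted p over all alternatives ran from 0.0274 to 0.17.

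ABCC2 had 19508, 19523 and 19760 normalized counts in EV and 17149, 17872 and 18961 in shCHROME. The groups did not overlap, but the log2 fold change of -0.12 (95% interval -0.24 to -0.01) did not pass the test (adjusted p = 0.168). ABCB1 had 8245, 8187 and 7665 in EV and 8625, 7163 and 8158 in shCHROME, with the groups overlapping and a log2 fold change of -0.01 (95% interval -0.15 to 0.12). ABCB11, the bile salt export pump, had 1 read in EV and 2 in shCHROME, summed by group, and was not tested.

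ABCB4 and ABCB1 are neighbours on chromosome 7. Within a library the ratio of their counts is free of the library's scaling. It was 0.257, 0.284 and 0.269 in EV and 0.198, 0.233 and 0.213 in shCHROME, without overlap. The log2 ratio differed by -0.33 (SE 0.08). The ratio of ABCC3 to ABCC2 was 0.0794, 0.0803 and 0.08 in EV and 0.066, 0.0694 and 0.0599 in shCHROME, a log2 difference of -0.30 (SE 0.06), also without overlap. For each the exact two-sided permutation p was 0.1, the smallest that 3 libraries against 3 can give, and 0.15 adjusted over the 3 ratios computed. The ratios were chosen after the values of single members were seen. ABCB4 and ABCC3 had already been called lower, so their ratios are no separate evidence of a decrease.

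**Figure D3:**
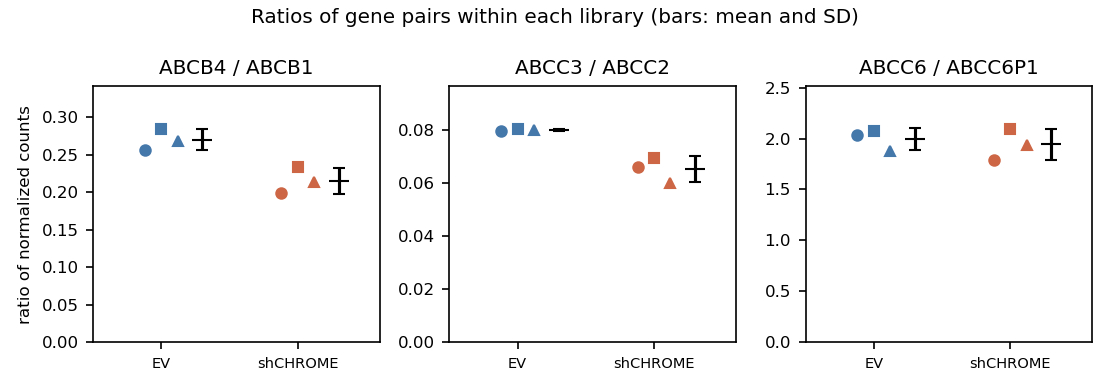
Each point is the ratio of 2 genes' normalized counts in 1 library (y axis from 0; circle, square and triangle for replicates a, b and c), with EV in blue, shCHROME in orange and bars for the mean and SD. ABCB4 over ABCB1 and ABCC3 over ABCC2 are lower in every shCHROME library than in every EV library, and ABCC6 over ABCC6P1 overlaps.

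Subfamily C holds the multidrug resistance proteins and the sulfonylurea receptors. Of its 12 members 9 were tested, of which 1 fell and none rose. ABCC3, which returns glucuronides and bile acids from the hepatocyte to the blood, had 1549, 1569 and 1581 normalized counts in EV and 1132, 1240 and 1136 in shCHROME. Every EV library lay above every shCHROME library. The decrease of 1.34-fold, a log2 fold change of -0.42 (SE 0.07, limma adjusted p = 0.000554), was the largest among the tested members. With ABCB4 it was called under each of the 16 alternatives, with adjusted p up to 0.00693 for ABCC3 and 0.0172 for ABCB4.

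The other tested members of subfamily C did not pass the test. The 8 exporters of this subfamily in other plasma membranes had 7 tested, with ABCC3 as the only call and a median log2 fold change of -0.05. ABCC5, an exporter of nucleotide analogues, had 1127, 1111 and 1183 normalized counts in EV and 1259, 1224 and 1381 in shCHROME. These groups did not overlap, with a log2 fold change of 0.17 (adjusted p = 0.142). ABCC10, another drug exporter, had a log2 fold change of -0.15 (adjusted p = 0.207), also without overlap. ABCC1 (0.01), the glutathione conjugate exporter, ABCC4 (-0.05), which exports cyclic nucleotides, and ABCC11 (-0.09) overlapped between the groups, as did ABCC9 (0.13), the sulfonylurea receptor of vascular potassium channels. ABCC9 was called as higher without shCHROME replicate a (log2 fold change 0.29, adjusted p = 0.0225), while over all alternatives its adjusted p reached 0.927.

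ABCC6, whose loss causes ectopic calcification, had a log2 fold change of 0.19 (adjusted p = 0.131), and without shCHROME replicate a it was called as higher (0.26, adjusted p = 0.0284, with 0.398 as the highest of its alternatives). Its partial copies ABCC6P1 and ABCC6P2 are also in the table, so reads shared between these copies leave the value uncertain. ABCC6P1 had 970 ± 60.7 normalized counts in EV and 1133 ± 36 in shCHROME (SD, n = 3 per group), a log2 fold change of 0.22 (adjusted p = 0.0624). The ratio of ABCC6 to ABCC6P1 ran from 1.87 to 2.08 in EV and from 1.79 to 2.10 in shCHROME, with overlap (exact two-sided permutation p = 0.7, also after adjustment).

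In subfamily D, whose proteins serve peroxisomes and lysosomes, 2 of 3 members were tested. limma called 0, as did edgeR and DESeq2, and 1, ABCD4, had an unadjusted p under 0.05, beside 24.2% of all genes. ABCD3, the peroxisomal carrier of branched-chain and bile acid precursors, had 3802, 3867 and 3915 normalized counts in EV and 3578, 3510 and 3967 in shCHROME. The groups overlapped, with a log2 fold change of -0.07 (95% interval -0.20 to 0.06). ABCD2, another peroxisomal carrier of fatty acyl-CoA, had 2 reads in EV and 1 in shCHROME.

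ABCD4, which moves vitamin B12 out of lysosomes, had a fold change of the opposite sign. It had 1647, 1703 and 1714 normalized counts in EV and 1968, 1872 and 1904 in shCHROME, without overlap. Its log2 fold change of 0.18 (95% interval 0.05 to 0.31) did not pass the test (adjusted p = 0.0732). It was called as higher with upper quartile scaling (0.20, adjusted p = 0.0452) and library totals (0.23, adjusted p = 0.0214), and reached an adjusted p of 0.227 at most.

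**Figure D4:**
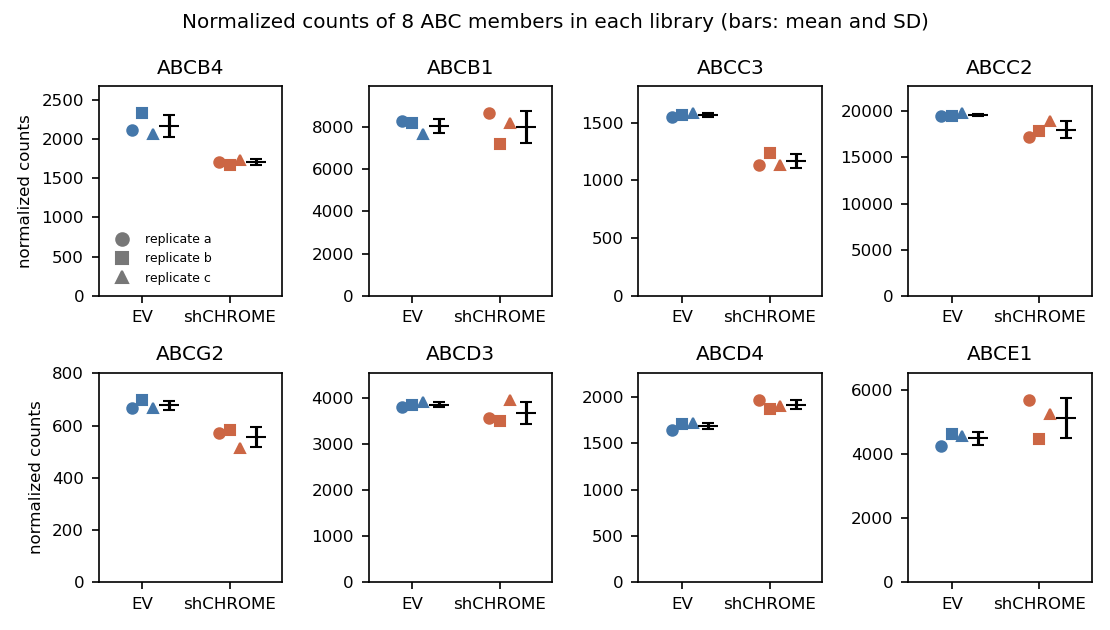
Each panel shows the normalized counts of 1 member in each library (y axis from 0; circle, square and triangle for replicates a, b and c), with EV in blue, shCHROME in orange and bars for the mean and SD. ABCB4, ABCC3, ABCG2 and ABCC2 are lower in every shCHROME library than in every EV library, ABCD4 is higher in every one, and ABCB1, ABCD3 and ABCE1 overlap.

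Subfamily B beyond the canalicular pumps is mainly made of short transporters of mitochondria and lysosomes that work in pairs. The 5 members of lysosomes and related vesicles (ABCA2, ABCA3, ABCA5, ABCB9 and ABCD4) gave no call, with a median log2 fold change of -0.06. None of the 3 members of mitochondrial membranes passed the test, and their median log2 fold change was 0.03. ABCB10, which takes part in heme synthesis, differed by 0.03 on the log2 scale (95% interval -0.12 to 0.19), ABCB6, a porphyrin carrier, -0.04 (-0.19 to 0.12), and ABCB8 0.10 (-0.13 to 0.32). ABCB9, a lysosomal peptide carrier, had 0.16 (-0.07 to 0.40) and the low ABCB5 0.06 (-0.35 to 0.48).

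In subfamily A, the large lipid transporters, 8 of 11 members were tested. limma called 0, as did edgeR, and DESeq2 called 1, ABCA2. DESeq2 gave no adjusted p for ABCA4 and ABCA13. An unadjusted p under 0.05 was found with limma for 2 of the 8, beside 24.2% of all genes. ABCA3, of the surfactant bodies of the lung, had the highest level per length in this subfamily, at 228 ± 22.9 normalized counts per kilobase in EV. Its counts were 1798, 1592 and 1948 in EV and 1584, 1590 and 1543 in shCHROME, with EV replicate b just above the highest shCHROME library. The log2 fold change was -0.17 (adjusted p = 0.154), and without EV replicate b it was called as lower (-0.25, adjusted p = 0.0498; at most 0.508 over its alternatives). ABCA2, of lysosomes and myelin lipids, had 1141, 988 and 1271 in EV and 714, 1060 and 914 in shCHROME, with overlap. Its log2 fold change of -0.35 (95% interval -0.59 to -0.11) missed the threshold with limma (adjusted p = 0.062) and passed it with DESeq2 (adjusted p = 0.0475), without EV replicate b (0.0231) and without shCHROME replicate b (0.0163). The highest adjusted p of its alternatives was 0.245.

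The widest intervals of the family were those of its rarest tested members. ABCA4, the retinoid flippase of photoreceptors, had 10, 18 and 13 reads in EV and 24, 21 and 21 in shCHROME. The groups did not overlap, and the log2 fold change of 0.69 had a 95% interval from -0.01 to 1.39 (adjusted p = 0.212). ABCA13 had a log2 fold change of 0.27 (-0.54 to 1.07). Among genes of the chromosome 17 cluster of subfamily A, ABCA5 had -0.06 (-0.20 to 0.08), ABCA9 0.20 (-0.19 to 0.59) and ABCA10 0.23 (-0.32 to 0.77). ABCA6 had 1 read in EV and 4 in shCHROME, and ABCA8 had 2 and 6. ABCA7, linked to phagocytosis and Alzheimer disease, had 0.24 (-0.10 to 0.59). ABCA12, a skin lipid transporter, had 4 reads in EV and 18 in shCHROME, without overlap, and was below the expression filter. The median log2 fold change of the subfamily was 0.21, and 0.07 when genes had to reach 1 CPM (reads scaled to a common library total) in 3 libraries.

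Of the 4 soluble members of subfamilies E and F, limma, edgeR and DESeq2 each called 0. An unadjusted p under 0.05 was found with limma for 1, ABCE1, beside 24.2% of all genes. ABCE1, which splits ribosomes after termination, had 4261, 4636 and 4576 normalized counts in EV and 5692, 4459 and 5239 in shCHROME. The groups overlapped through shCHROME replicate b, with a log2 fold change of 0.19 (95% interval 0.03 to 0.34, adjusted p = 0.126). It was called as higher without that library (0.28, adjusted p = 0.0102) and with library totals (0.24, adjusted p = 0.0425), with a highest adjusted p of 0.369. ABCF1, a partner of initiation factor eIF2, had 3077, 2954 and 3019 in EV and 3241, 3028 and 2950 in shCHROME, a log2 fold change of 0.03 (-0.10 to 0.15). ABCF2 had 0.08 (-0.04 to 0.21), with shCHROME above EV in all libraries, and ABCF3 -0.13 (-0.29 to 0.03), with shCHROME below EV in all. The 9 partners in ribosome release and initiation that were tested gave no call either. EIF2S3, the highest per length of those with an exon length, had a log2 fold change of -0.18 (adjusted p = 0.0525).

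Among the 28 tested members that were not called, the 95% interval lay within 1.5-fold in either direction for 22 and within 2-fold for 26. The 6 that reached beyond 1.5-fold were ABCA2, ABCA4, ABCA7, ABCA9, ABCA10 and ABCA13. The remaining members without a test were ABCC8, the pancreatic sulfonylurea receptor, with 2 reads in each group, ABCC12 with 1 in EV and 3 in shCHROME, ABCG4 with 4 and 5, and ABCC13, annotated as a pseudogene by RefSeq, with 25 and 21.

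**Figure D5:**
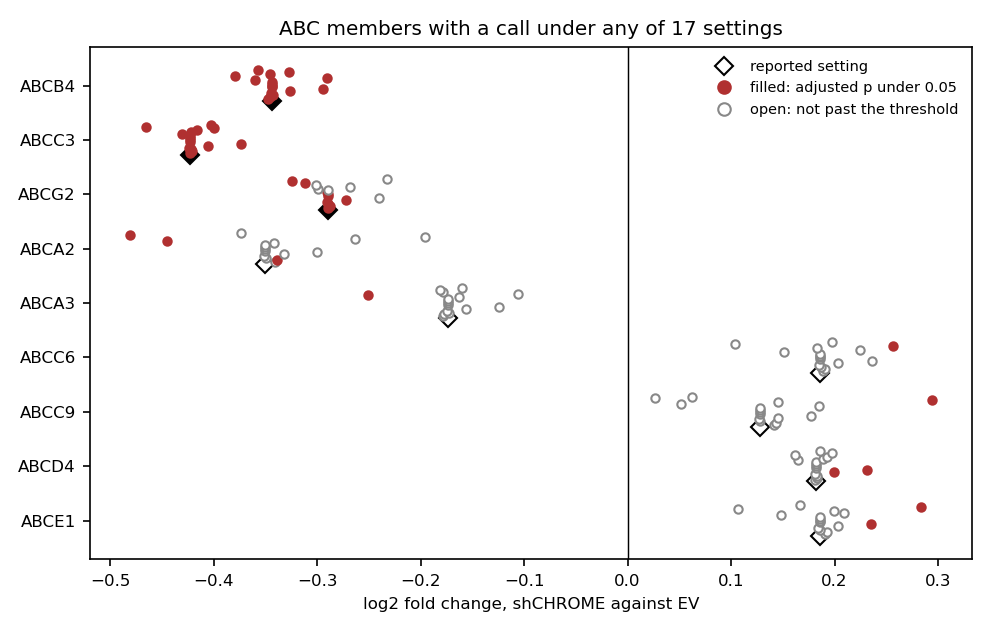
Each point is the log2 fold change (x axis) of 1 member under the reported setting (diamond) or 1 of the 16 alternatives, for the 9 members called under at least 1 of them. Filled points passed an adjusted p of 0.05: ABCB4 and ABCC3 are filled under all, ABCG2 under some, and the other 6 under 1 to 3.

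Genes that act with these transporters were read from lists in the same fit. Their counts stand beside the 10.5% of all genes tested that were called, 6.87% lower and 3.64% higher, and the lists are short. The median log2 fold change was -0.09 over the receptors and factors, -0.10 over conjugation and -0.10 over the uptake carriers, beside 0.01 over all genes. The same median was -0.17 over peptide loading, -0.05 over iron-sulfur and heme synthesis and -0.01 over the translation partners. Of the 14 receptors and factors that switch transporter genes, 4 fell and none rose. RXRA, the shared partner of many nuclear receptors, fell 1.33-fold, KEAP1, which holds NRF2 in check, 1.26-fold, PPARA 1.23-fold and NFE2L2, which encodes NRF2, 1.18-fold (limma adjusted p from 0.000158 to 0.0264). The xenobiotic receptors NR1I2 (-0.18) and NR1I3 (0.26) did not pass the test, nor did the bile acid receptor NR1H4 (-0.10), by their log2 fold changes. In conjugation, which prepares substrates for the C subfamily, 3 of 10 tested genes fell and 1 rose. The sulfotransferases SULT2A1 and SULT1A1 fell 1.39-fold and 1.27-fold and the glutathione synthesis gene GCLC 1.17-fold, while GSS rose 1.27-fold. Of 8 tested hepatic uptake carriers 2 rose and 2 fell: SLCO1B3 rose 11.8-fold and SLC22A9 1.42-fold, and SLCO2B1 fell 1.49-fold and SLC22A18 1.30-fold. SLCO1B3 rose from a low level, with 59 reads in EV and 726 in shCHROME, summed by group. Nearest the threshold among the conjugation and carrier calls were SULT1A1 (limma adjusted p = 0.0418) and SLC22A18 (limma adjusted p = 0.0405).

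Among 8 partners of the peroxisomal and lysosomal members, HSD17B4, of peroxisomal beta-oxidation, fell 1.17-fold, and the median log2 fold change was 0.00. Of 10 genes of iron-sulfur and heme synthesis CPOX fell 1.21-fold and none rose. In peptide loading B2M fell 1.27-fold and ERAP1 1.196-fold of 5 genes tested. TAP1 and TAP2, the ABC peptide transporters named outside the rule, had log2 fold changes of -0.17 and -0.10 and did not pass the test. Of the sterol exporters left out by the rule, ABCA1 and ABCG8 fell and ABCG5 did not pass the test (log2 fold change 0.02), while ABCG1 was below the expression filter. CFTR had 2 reads in each group.

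In the authors' deposited table the same 3 members had an adjusted p under 0.05, and all 31 tested members had a fold change of the same sign as here. The authors' deposited table gives log2 fold changes of -0.38 for ABCC3, -0.32 for ABCB4 and -0.26 for ABCG2, with adjusted p of 0.000161, 0.000372 and 0.0273. These come from the same libraries and are no independent measurement. The authors' fold changes are smaller in size than the limma ones for these 3 members, but not for them alone. For the rare ABCA4 the log2 fold change is 0.17 in the authors' table and 0.69 here. Beyond this, sizes are not compared.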

How the data were processed

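RNA of 6 HepG2 libraries was made into TruSeq libraries and sequenced in pairs, per the labels' protocols. STAR 2.5, featureCounts 1.5.2, DESeq2 (given as 3.4) and hg19 are named in the submitters' processing notes. The annotation and the strand setting are not given in the sources used here. Reads of overlapping, antisense or copied genes may thus be split or lost.

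The deposited table of the authors gives a signal per gene and library (read counts over a size factor) beside their own log2 fold changes and p-values, raw and adjusted. Its 24656 rows held 23368 distinct genes; ABCF1 filled 7 identical rows. Values were whole multiples of 1 read, within 0.01 reads, for 100% of genes. Recovered totals were 29188213 to 35429420 reads in EV and 29477352 to 33911426 in shCHROME, and replicates differed by more than sampling noise (chi-square per degree of freedom 5.51 to 16.2).

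limma 3.58.1 with an intensity trend was run on log2(value + 1) for the 14598 genes kept by filterByExpr of edgeR 4.0.16, with group as the term and Benjamini-Hochberg adjustment over all of them; a call is an adjusted p under 0.05. Fold changes on this scale understate those of low genes. The fit was tested on simulated data, counts drawn from the means of these libraries with known fold changes in a seeded set of genes. edgeR's quasi-likelihood test and DESeq2 1.42.0 on the recovered reads, 4 other scalings, 2 other filters, a replicate block, a pseudocount of 0.1 and the omission of each library made up the 16 alternatives. Exon lengths were those of merged exons in GENCODE release 29, whose coordinates served only to give lengths. Promoters came from RefSeq (GRCh38.p14).

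The members and gene lists were chosen with earlier results of these data known. The symbol rule finds 42 genes, of which 2 are not reported here: they stayed in the fit over all genes, and every count, median and sum of members leaves them out. Every other tested member is named; values in every library are given for called members and for the member of each subfamily with the highest level per length, and for others that the text singles out, which were chosen after their values were seen. Of the partner lists, called genes are named, or else the most expressed.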

Additional observations from a re-analysis of the deposited data

How the results depend on the processing

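ABCB4 and ABCC3 stayed called under all 16 alternatives. The 3 lower calls were 2 with library totals and 2 with the replicate block, and 2 to 4 when 1 library was left out (2 on leaving out EV a, EV c or shCHROME c). The members called also changed. Without EV b the 4 lower calls were ABCA2, ABCA3, ABCB4 and ABCC3, and ABCG2 was lost. Higher calls, 0 as reported, were 1 with upper quartile scaling, 2 with library totals and 0 to 2 with 1 library left out. In subfamily A the calls were 1 with DESeq2 and 0 to 2 with 1 library left out; in C they were 1 to 3, in E 0 to 1 and in G 0 to 1 in this way. Subfamily D, with 0 calls as reported, had 1 with upper quartile scaling and 1 with library totals. With the replicate block G had 0 calls, and with library totals E had 1 and G 0. Calls among the partner genes, 13 lower, were 8 with library totals and 7 to 16 with 1 library left out.

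The median log2 fold change of all tested members was 0.0752 with library totals and 0.0002 to 0.0491 with 1 library left out. Library totals moved the median of all genes from 0.01 to 0.06, and those of subfamilies B and C to 0.0812 and -0.0023. The median of A was 0.0711 with the filter of 1 CPM in 3 libraries. With 1 library left out the medians ran from 0.0356 to 0.3193 in A, -0.0231 to 0.0491 in B and -0.053 to 0.0009 in C. The cause of these shifts was not tested. No called member changed sign.

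The replicate letters are not tied by any label to a shared culture, and deviations of same-letter libraries correlated at -0.05, -0.09 and 0.04, so they were not treated as pairs. With the replicate block ABCG2 was not called (adjusted p = 0.0659). The 9 members without a test had at most 46 reads over the 6 libraries, so the reported fit gives no result for them. They were fitted only in the alternative without a filter, where they were not called. The lowest adjusted p among them there was 0.0704, for ABCA12.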
